A study of Mus musculus with 1 sample.

Results

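The genes described here encode chromatin remodellers, histone-modifying enzymes and their closest readers. They were taken from the GENCODE vM21 annotation by gene symbol, as the protein-coding genes whose names begin with Smarc, Kdm, Kmt, Chd and a digit, Arid, Hdac, Brd and a digit, Cbx, Setd, Ehmt or Ezh, together with Suz12 and Eed. The rule found 102 genes. At least 1 read was present for 94 of them, and 60 had the 10 reads needed for a gene value, of 6754 nuclear protein-coding genes with that many. Another 34 had 1 to 9 reads. The remaining 8 had none, among them Arid3a, Arid3c, Cbx8, Chd3, Hdac7, Hdac9 and Kdm4d. Brd3os was drawn in by its symbol and had 1 read.

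The cells were wild-type mouse embryonic stem cells (ESCs) of the ICR strain, collected at 24 h of differentiation into epiblast-like cells (EpiLCs), a state between naïve and primed pluripotency. They were grown on Matrigel in N2B27 medium with activin A, bFGF and KSR. Poly(A) tails were read by PAIso-seq, in which full-length cDNA that includes the tail is circularised and sequenced repeatedly on the PacBio platform. There was 1 group of 1 sample, which pooled 2 replicates under separate barcodes. Nothing in the labels says that the replicates came from separate cultures, so their spread may be technical, and they are numbered here by barcode.

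Chromatin remodellers use ATP to slide, evict or exchange nucleosomes. Methyltransferases, demethylases and deacetylases write or remove marks on histone tails, and proteins with bromodomains or chromodomains bind those marks. In pluripotent cells, Polycomb complexes hold developmental genes silent while BAF and CHD remodellers keep chromatin accessible. A poly(A) tail protects an mRNA from decay, and deadenylases such as the Ccr4-Not complex shorten it.

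Reads with at least 7 passes numbered 354259 in replicate 1 and 593361 in replicate 2, of which 246316 and 455660 lay in nuclear genes. The labelled cell state was checked against marker genes. All 6 markers of formative or epiblast-like cells were detected, with 1096 reads, and 7 of 8 naïve markers with 589 reads. Markers of fibroblast feeders (1 of 5 detected, 2 reads), mesoderm (1 of 3, 5 reads), neural cells (2 of 2, 5 reads) and primitive endoderm (1 of 4, 1 read) were at or near 0. Tails of only 1 to 5 nt made up 0.988% of protein-coding transcripts in replicate 1 and 2.55% in replicate 2.

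The chromatin genes took 5797 reads, 1903 in replicate 1 and 3894 in replicate 2, or 7726 and 8546 reads per 1000000 nuclear reads. A gene with values had between 10 and 556 reads with a median of 48.5. Depth was therefore low for most of these genes, with 42 of the 60 reaching 10 reads in each replicate and 20 reaching 30 in each. A count of 3 reads, taken as the smallest that is detectable, made 0.00122% of nuclear reads in replicate 1 and 0.000658% in replicate 2.

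The tail letters themselves show what was measured. Eed, Suz12 and Arid1a are printed because, among members with at least 30 reads in each replicate, they held the most tails of 6 to 30 nt that ended in T. Each line is the tail of 1 transcript, 5′ to 3′ as cDNA, with bases other than A in capitals (T in cDNA stands for U in the RNA). For each gene the tail with the most passes among those ending in T comes first and that among those ending in A comes next.
Eed ending in T, 18 nt: aaaaaaaaaaaaaaaTTT
Eed ending in A, 26 nt: aaaaaaaaaaaaaaaaaaaaaaaaaa
Suz12 ending in T, 9 nt: aaaaaaaTT
Suz12 ending in A, 13 nt: aaaaaaaaaGaTa
Arid1a ending in T, 12 nt: aaaaaaaaaaaT
Arid1a ending in A, 20 nt: aaaaaaaaaaaaaaaaaaaa

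These reads had 144 and 205 passes for Eed, 91 and 235 for Suz12, and 107 and 117 for Arid1a. On GRCm38, Eed lies at chr7:89954654-89980983 on the minus strand, Suz12 at chr11:79993106-80034123 on the plus strand and Arid1a at chr4:133679008-133756769 on the minus strand. The Suz12 tail that ended in A also held a G and a T within it, the kind of interruption that was counted as a non-A base.

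The chromatin genes had shorter gene tails than protein-coding genes at large. The tail of a gene was taken as the geometric mean over its transcripts. Its median was 62.5 nt over the 60 chromatin genes (quartiles 47.5 and 77.9 nt, range 8.99 to 110.6 nt) and 75.5 nt over all protein-coding genes (quartiles 62.1 and 87.4 nt), a difference of -12.9 nt. The lower median was seen in each replicate, with 71.9 against 77.1 nt in replicate 1 (42 chromatin genes with at least 10 reads there) and 64.4 against 75.8 nt in replicate 2 (54 genes). With 1 group there was no test, and these are descriptions of the libraries.

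Counts of genes gave the same order. A boundary of 75 nt between shorter and longer gene tails left 42 of 60 chromatin genes below it (70%), where 49% of all protein-coding genes were below. Counts below 75 nt given later for single roles and partner lists stand against this 49%, and most of them rest on few genes. Below 50 nt there were 18 of 60 (30%) against 12% of all. Only Arid3b, Cbx1 and Smarcc2 reached 90 nt. Among the 42 genes with at least 10 reads in each replicate, 21 (50%) fell under the protein-coding median in both replicates, against 32.8% of all genes with that depth. At or above it in both were 8 (19%), against 34.8% of all, and the other 13 were split between the replicates. Members with long tails in both replicates were Cbx1, Cbx5, Cbx7, Smarca4, Smarcb1, Smarcd1, Hdac2 and Arid3b.

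**Figure D1:**
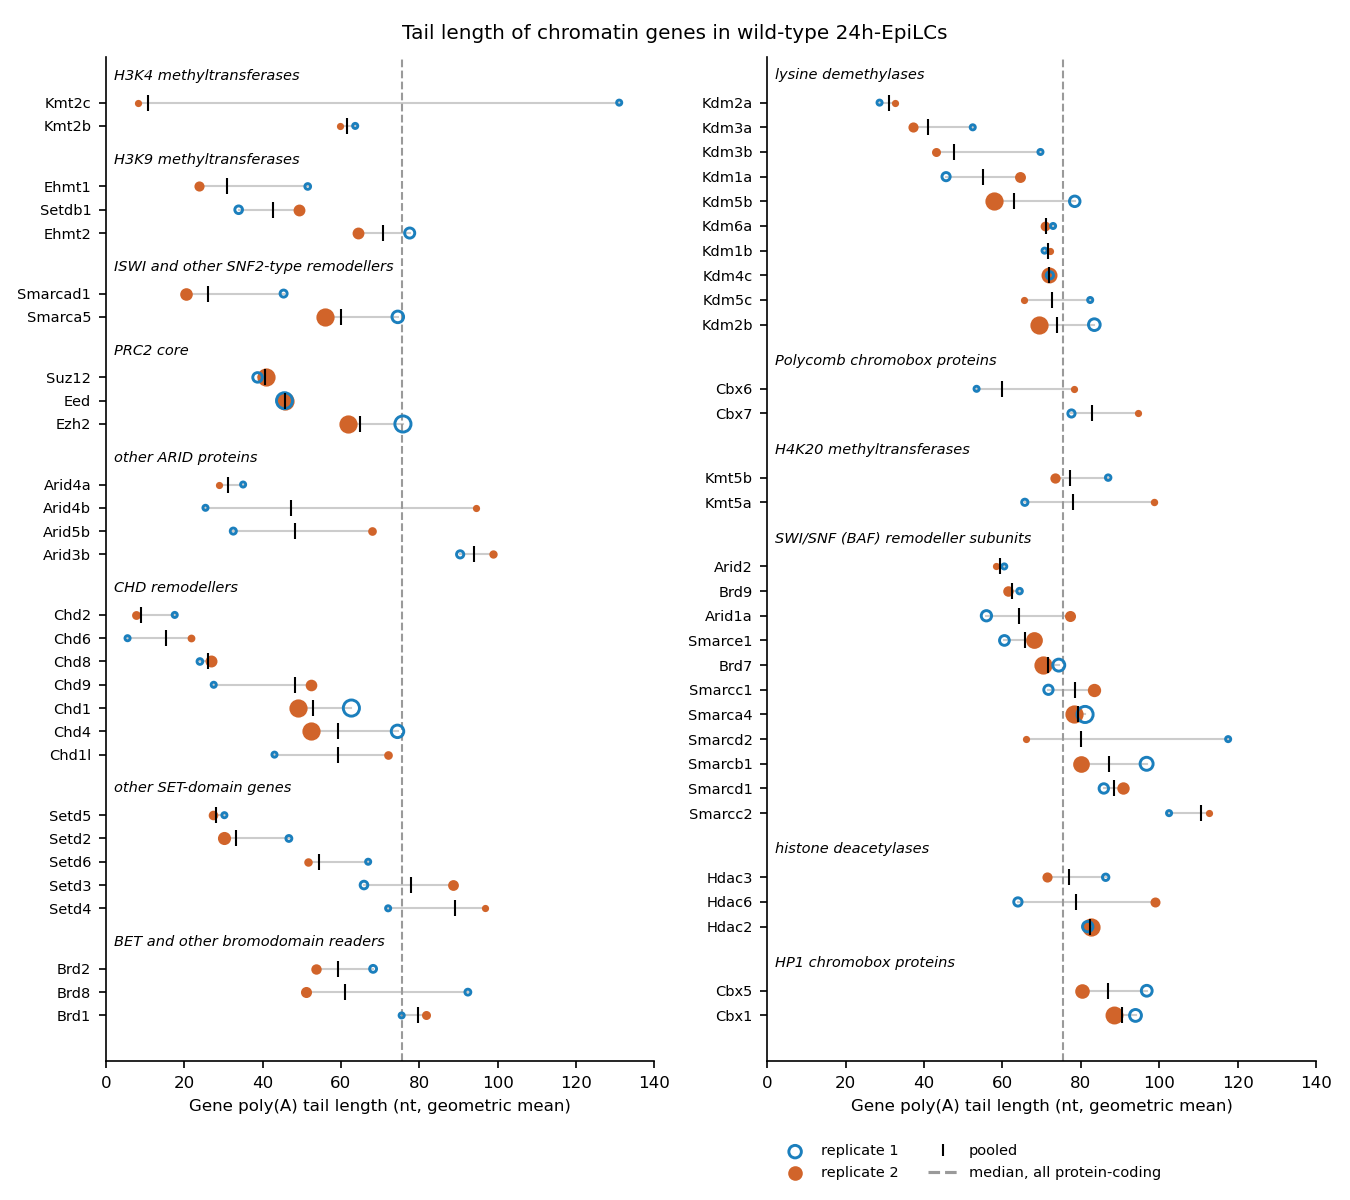
Gene poly(A) tail length in nt (geometric mean) of the chromatin genes with at least 10 reads, grouped by role (1 of the 60 is not drawn). Open blue circles are replicate 1, filled orange circles replicate 2 (larger circles for more reads), black ticks the pooled value, and the dashed line the median of all protein-coding genes, 75.5 nt. The CHD remodellers, lysine demethylases and PRC2 genes have every black tick left of the line, while Cbx1 and Cbx5, the HP1 genes with values, lie right of it.

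Polycomb repressive complex 2 (PRC2) methylates lysine 27 of histone H3. Its core genes with values all had gene tails under 75 nt (3 of 3, median 45.6 nt). Eed, the subunit that binds the methylated product, had a gene tail of 45.6 nt in replicate 1 (118 reads) and 45.6 nt in replicate 2 (174 reads). Its replicates differed by far less than those of a typical chromatin gene, for which the median difference between replicates was 14.7 nt. The median transcript of Eed carried 47.5 nt, and 36.0% of its transcripts fell in the class of 6 to 30 nt.

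Suz12, the scaffold of PRC2, had the shortest gene tail of the 20 members with at least 30 reads in each replicate, with 38.7 nt in replicate 1 (42 reads) and 40.9 nt in replicate 2 (182 reads). Of its transcripts, 28.1% had 6 to 30 nt and 8.04% had 1 to 5 nt. Ezh2, the catalytic subunit, was the best covered member with 556 reads. Its gene tail was 75.8 nt in replicate 1 (126 reads) and 61.9 nt in replicate 2 (430 reads), longer than those of Eed and Suz12 in both replicates. The other catalytic subunit, Ezh1, had only 9 reads. Polycomb partners outside the symbol rule, such as Rnf2, Jarid2 and Mtf2, had gene tails with a median of 63.9 nt, and 6 of the 7 tested were below 75 nt.

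**Figure D2:**
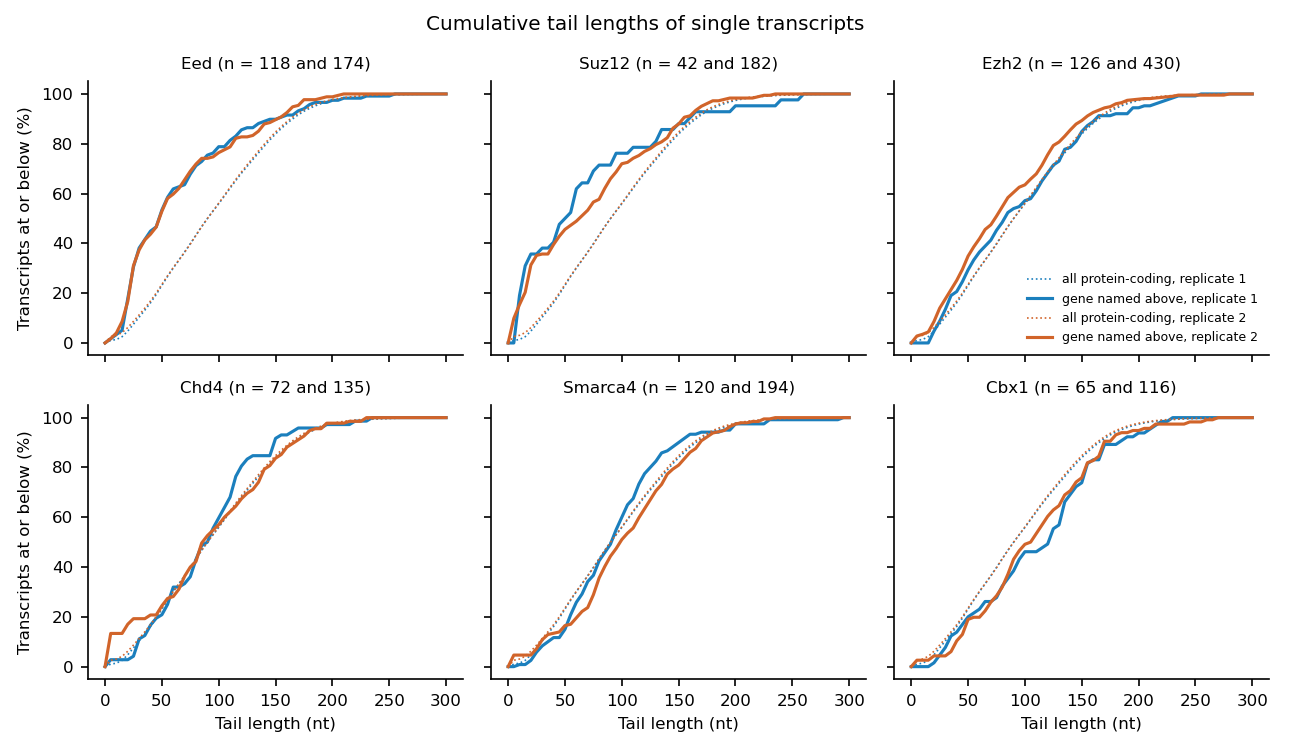
Cumulative share of transcripts (%) at or below each tail length (nt) for 6 chromatin genes, solid lines by replicate, with all protein-coding transcripts of the same replicate as dotted lines. Eed and Suz12 rise early in both replicates, Ezh2 rises earlier than the dotted line mainly in replicate 2, Chd4 has a step at the left end in replicate 2, and Cbx1 lies right of the dotted lines over most of the range.

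CHD remodellers are ATPases, most of which have paired chromodomains, and Chd1l, which does not, is counted with them here by its symbol. All 7 with values had gene tails under 75 nt, with a median of 48.2 nt, and Chd4, the ATPase of the NuRD repressor complex, held the largest number of 1 to 5 nt tails of any member (20). Its gene tail was 74.4 nt in replicate 1 (72 reads) and 52.3 nt in replicate 2 (135 reads), so the replicates were far apart. Tails of 1 to 5 nt were 9.66% of its transcripts. Over tails of at least 6 nt its gene tail was 87.6 nt. Chd1, a remodeller of transcribed genes needed for open chromatin in ESCs, had 62.7 nt (120 reads) and 48.9 nt (273 reads), under the protein-coding median in both replicates.

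The shortest CHD genes were thinly covered and are named after their values were seen. Chd2 had a gene tail of 8.99 nt over 26 reads, of which 65.4% had 1 to 5 nt, and 106.0 nt over its 9 tails of at least 6 nt. For Chd6 the gene tail was 15.4 nt over 20 reads, and 82.0 nt without its very short tails. Chd8 had 24.0 nt in replicate 1 (15 reads) and 26.8 nt in replicate 2 (45 reads), and its value over tails of at least 6 nt was still only 49.2 nt. The low values of Chd2 and Chd6 thus rested on very short tails, while Chd8 was short without them too.

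SWI/SNF (BAF) subunits were close to protein-coding genes at large. Of 11 tested, 5 had gene tails under 75 nt (45.5%, against 49% of all), with a median of 78.4 nt. Smarca4, the Brg1 ATPase of the complex, had 81.1 nt (120 reads) and 78.3 nt (194 reads), above the protein-coding median in both replicates. The core subunit Smarcb1 had 96.8 nt (78 reads) and 80.1 nt (98 reads). Smarcd1 had 85.9 nt (41 reads) and 90.8 nt (49 reads). These 3 subunits were therefore long in each replicate, and Smarcb1 had, after Cbx1 and Cbx5, the highest share of tails over 150 nt, 20.5%, among members with at least 30 reads in each replicate.

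Other BAF subunits were lower or less settled. Smarcc1, the core scaffold, had 71.7 nt in replicate 1 (40 reads) and 83.4 nt in replicate 2 (58 reads), on both sides of the protein-coding median. Arid1a, the DNA-binding subunit, had 55.9 nt (49 reads) and 77.3 nt (37 reads), 1 of the 3 largest replicate ratios among members with at least 30 reads in each. Smarce1, with 60.5 and 68.1 nt, Brd7 with 74.4 and 70.4 nt and Brd9 with 64.4 and 61.5 nt were under the protein-coding median in both replicates, and are named after their values were seen. Partners of BAF outside the rule had a median of 73.1 nt, with 3 of 6 below 75 nt (50%, against 49% of all).

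The remodellers built on ISWI and related ATPases were short. Smarca5, the ISWI ATPase Snf2h, had 74.5 nt in replicate 1 (62 reads) and 56.0 nt in replicate 2 (192 reads). Smarcad1, named after its value was seen, had 45.4 nt (23 reads) and 20.4 nt (51 reads), with 23.0% of transcripts at 1 to 5 nt. Among the genes of ISWI, INO80 and SRCAP complexes that the rule did not take, 6 of 7 tested were below 75 nt, with a median of 51.2 nt.

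Lysine demethylases remove methyl groups from histone lysines. All 10 with values had gene tails under 75 nt, but their median of 67.1 nt was closer to the boundary than that of the CHD genes. The best covered was Kdm2b, which binds CpG islands and recruits a variant Polycomb complex, with 83.4 nt (63 reads) and 69.4 nt (124 reads). Kdm1a, the LSD1 demethylase of the CoREST complex, had 45.6 nt in replicate 1 (31 reads) and 64.5 nt in replicate 2 (36 reads). It was under the protein-coding median in both replicates although they lay far apart. Kdm2b was on both sides of that median.

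Histone methyltransferases had mixed tails. The H3K9 enzymes were all under 75 nt (3 of 3, median 42.7 nt). Ehmt1 and Ehmt2 encode the partner proteins GLP and G9a, which methylate H3K9 as a heterodimer, and their tails were unlike. Ehmt1 had 51.5 nt (15 reads) and 23.8 nt (30 reads), and Ehmt2 had 77.5 nt (47 reads) and 64.3 nt (44 reads). Both replicates of Ehmt1 lay below both of Ehmt2. The difference was -26.0 nt in replicate 1, -40.4 nt in replicate 2 and -40.0 nt in the pooled values, and was not tested. Over tails of at least 6 nt Ehmt1 had 53.9 nt and Ehmt2 80.6 nt, so most of the difference remained. Over tails of at least 15 nt they had 71.2 and 80.6 nt, a narrower difference. In replicate 1 neither gene had a tail of 1 to 5 nt. Their median reads were 63 and 78 nt.

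For H3K4, only Kmt2b (61.4 nt, 16 reads) and Kmt2c of 7 listed enzymes had values, and both pooled values were under 75 nt. Kmt2b had 80.8 nt over tails of at least 6 nt and a median read of 78.5 nt. Kmt2c had 131.0 nt from its 1 read in replicate 1 and 8.08 nt from 9 reads in replicate 2, so its pooled value rested on replicate 2. The pooled values of the H4K20 enzymes Kmt5a and Kmt5b were not under 75 nt (0 of 2), but each gene was under it in 1 replicate. Kmt5b had 87.0 nt (14 reads) and 73.4 nt (31 reads). Kmt5a, named after its value was seen, had 65.7 nt (18 reads) and 98.8 nt (13 reads). Setd2, which trimethylates H3K36 in transcribed genes, had 46.7 nt (16 reads) and 30.0 nt (56 reads). It too had many very short tails, 22.2% of its transcripts, and reached 81.7 nt over tails of at least 6 nt. Partners of the COMPASS complexes that carry H3K4 enzymes had a median of 73.6 nt (5 of 7 below 75 nt), and acetyltransferases had 65.3 nt (7 of 9). Of all protein-coding genes, 49% were below 75 nt.

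HP1 proteins bind methylated H3K9 in heterochromatin, and 2 of their 3 genes had values, both at the long end. The other, Cbx3, had only 8 reads. Cbx1 (HP1β) had 93.9 nt in replicate 1 (65 reads) and 88.5 nt in replicate 2 (116 reads), the longest gene tail among the 20 members with at least 30 reads in each replicate. Cbx5 (HP1α) had 96.8 nt (54 reads) and 80.3 nt (72 reads). Tails over 150 nt made up 24.9% and 22.2% of their transcripts, the highest shares among those 20. Cbx7, a chromobox protein of Polycomb complex PRC1, had 77.6 nt (24 reads) and 94.5 nt (12 reads), so it too was above the protein-coding median in both replicates.

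The histone deacetylases with values had pooled gene tails at or above 75 nt (0 of 3 below, against 49% of all protein-coding genes). Of these, Hdac3 and Hdac6 were each under 75 nt in 1 replicate, and are named after their values were seen. Hdac3 had 86.3 nt (19 reads) and 71.5 nt (30 reads). Hdac6 had 63.9 nt (32 reads) and 98.9 nt (29 reads). Hdac2 had 81.8 nt (50 reads) and 82.6 nt (200 reads), nearly the same in both, with no tail of 1 to 5 nt in 250 reads. Taking 3 reads as the smallest detectable count, this allows a share of up to 1.20% (the 95% Wilson limit is 1.51%). NuRD, SIN3 and CoREST partners, in whose complexes Hdac1 and Hdac2 act, had a median of 77.6 nt. Of 14 tested, 6 were below 75 nt (42.9%, near the 49% of all). Chd4 of the same NuRD complex was, in contrast, under the protein-coding median in both replicates. The contrast rested on very short tails. Over tails of at least 6 nt Chd4 had 87.6 nt (81.2 and 91.6 nt by replicate). Hdac2 then had 82.5 nt, and the protein-coding median was 80.5 nt. Hdac1 itself had only 7 reads and no gene value. An annotated processed pseudogene, Gm10093 at chr17:78491582-78493025 (GRCm38), matched the Hdac1 transcript at 99.4% of 1444 aligned nt and held 205 reads with tails of 84.1 nt in replicate 1 and 97.7 nt in replicate 2. Reads of Hdac1 and of this copy cannot be told apart with certainty, so a tail for Hdac1 is not given.

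Of the bromodomain readers, which bind acetylated histones, 3 of 4 tested were below 75 nt (against 49% of all), with a median of 61.9 nt. That low median rested on very short tails and on replicate 2. Leaving out tails under 6 nt raised it to 80.9 nt, beside 80.5 nt for all protein-coding genes. By replicate the medians were 76.6 nt in replicate 1 (77.1 nt for all) and 54.8 nt in replicate 2 (75.8 nt for all). Brd2, the best covered, had 68.2 nt (22 reads) and 53.7 nt (32 reads), under the protein-coding median in both replicates. Of 18 paralog pairs listed, 2 had 10 reads for both genes in each replicate, and Ehmt1 with Ehmt2 was the pair without overlap. In several others 1 paralog took nearly all reads. Smarca4 had 314 reads against 3 for Smarca2, and Smarca5 had 254 against 6 for Smarca1. Arid3b, an ARID-domain DNA-binding protein, had 90.4 nt (24 reads) and 98.7 nt (18 reads). Arid4a was short in both replicates, with 35.0 nt (6 reads) and 28.9 nt (10 reads). Arid4b had 25.4 nt (9 reads) and 94.5 nt (8 reads), and Arid5b had 32.5 nt (17 reads) and 67.8 nt (20 reads), so their pooled values, both under 50 nt, hide replicates that lay far apart. These ARID genes are named after their values were seen.

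Taken over all 69 listed partner genes, of which 59 had values, the median gene tail was 69.0 nt and 66.1% were below 75 nt. These values lay between those of the chromatin genes chosen by symbol and those of all protein-coding genes. That order did not hold without very short tails. Over tails of at least 6 nt the medians were 76.3 nt for partners, 77.3 nt for chromatin genes and 80.5 nt for all. Over tails of at least 15 nt they were 78.2, 83.0 and 82.6 nt.

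Single transcripts showed which tails made the difference. The median tail over transcripts of the chromatin genes was 80 nt in both replicates, against 91 nt over all protein-coding transcripts. Tails of 1 to 5 nt made up 1.89% of their transcripts in replicate 1 (95% Wilson interval 1.37% to 2.61%) and 6.21% in replicate 2 (5.50% to 7.02%). These shares exceeded the 0.988% and 2.55% of all protein-coding transcripts in the same replicates. The intervals cover counting error only, since reads without molecular identifiers are not independent molecules. The class of 6 to 30 nt held 14.2% (13.3% to 15.1%) of chromatin transcripts and 8.89% of those of other protein-coding genes. At the long end the classes were close, with 14.9% of chromatin transcripts over 150 nt against 15.6%.

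**Figure D3:**
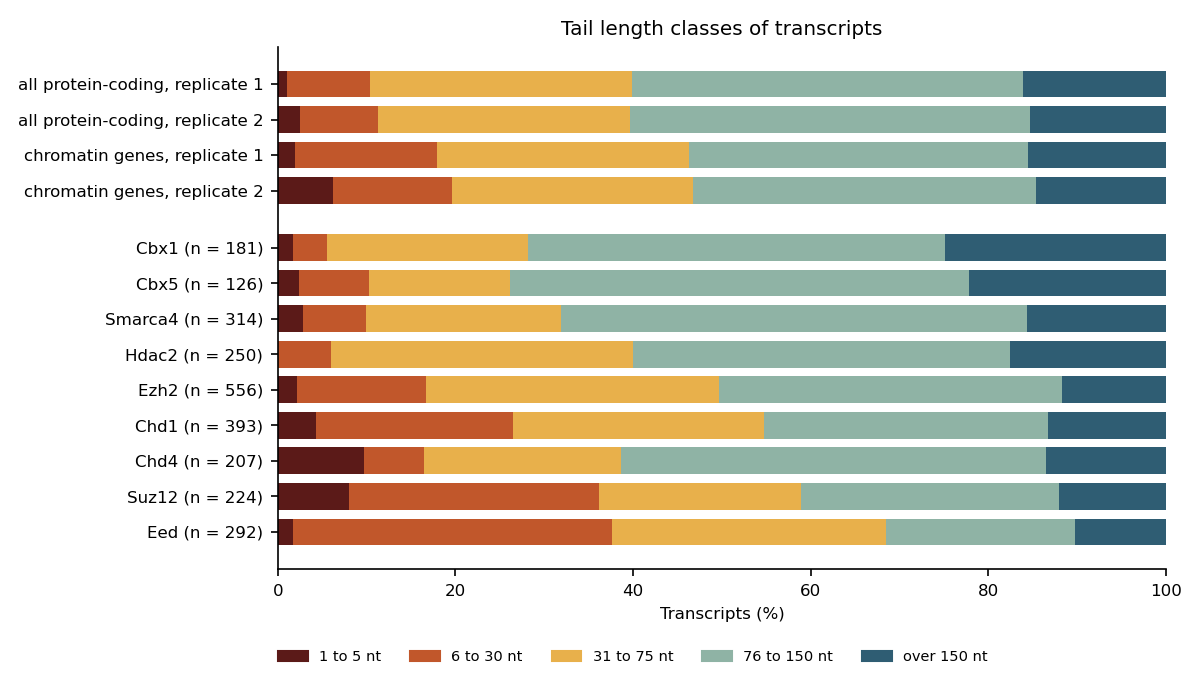
Share of transcripts (%) in 5 classes of tail length for all protein-coding genes and the chromatin genes in each replicate, and for 9 chromatin genes with both replicates pooled (n, number of reads). The chromatin genes have more transcripts of 1 to 5 nt and of 6 to 30 nt in both replicates, Eed and Suz12 are richest in tails of 6 to 30 nt among the genes drawn, and Hdac2 has no tail of 1 to 5 nt.

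Very short tails were uneven among the members. They exceeded 10% of transcripts in 11 of 60 genes (18.3%), against 7.77% of protein-coding genes, and were absent from another 11 (18.3%), against 55.6%. More reads give more chances to see such a tail, and the median number of reads was 48.5 for chromatin genes and 37 for all protein-coding genes. By role, in the pooled reads, the other SET-domain genes (11.7% of transcripts), H3K4 methyltransferases (11.3%) and CHD genes (10.4%) had the largest shares. ISWI and related remodellers had 7.35%, H3K9 methyltransferases 7.01%, PRC2 3.24%, BAF 2.10% and HP1 genes 1.90%. The deacetylases had 1.85%, or 7 of 378 transcripts, of which 5 were among the 7 reads of Hdac1. Of 278 such tails, 96.8% held only A, close to 97.0% over all protein-coding genes. The 10 genes with the most held 52.9% of them, led by Chd4 (20), Suz12 (18), and Chd1, Chd2 and Smarcad1 (17 each).

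Leaving out tails under 6 nt moved some genes far and others little. Eed had few such tails (1.71%), and its gene tail without them was 48.3 nt. Suz12, with more of them (8.04%), had 51.2 nt. Among the 7 CHD genes, Chd2, Chd4 and Chd6 then exceeded 80 nt, whereas Chd8 had 49.2 nt, Chd1 61.9 nt, Chd9 65.9 nt and Chd1l 67.7 nt. With tails under 6 nt left out, 15 chromatin genes crossed to 75 nt or more, 27 stayed below it, and 5 stayed below 50 nt (Eed, Chd8, Kmt2c, Kdm3a and Arid4a). These counts keep genes left with fewer than 10 reads, namely Kmt2c with 6, and Chd2 and Cbx6 with 9 each. The chromatin median was then 77.3 nt and the protein-coding median 80.5 nt. With 10 such reads required again, the difference of the medians was -3.85 nt.

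**Figure D4:**
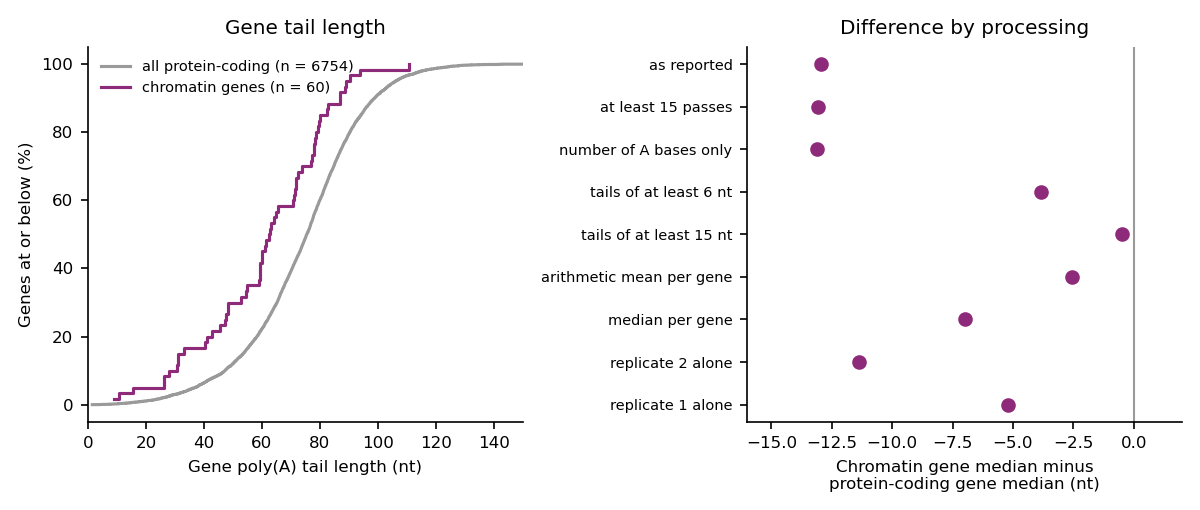
Left, cumulative share (%) of genes at or below each gene tail length (nt) for 60 chromatin genes and 6754 protein-coding genes. Right, chromatin gene median minus protein-coding gene median (nt) as reported and with other ways of taking the tail, each point being 1 way of processing. The difference is -12.9 nt as reported, and comes closest to 0 with tails of at least 15 nt, where it is -0.487 nt.

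The short tails of chromatin transcripts also differed in their last base, with a larger share ending in T in the pooled reads. Among tails of 6 to 30 nt, 21.1% (18.5% to 24.0%, 174 of 824) ended in T, against 15.7% of all protein-coding. In replicate 2 the share was 20.4% (17.1% to 24.1%) against 13.9%. In replicate 1 it was 22.4% against 18.8%, and there the interval included the protein-coding share. In the pooled reads the share fell along tail length, from 34.0% at 6 to 15 nt to 17.3% at 16 to 30 nt, 2.88% at 31 to 75 nt and 2.10% at 76 to 150 nt. Over all protein-coding tails it fell likewise, from 25.5% to 13.7%, 2.81% and 1.84%. At 6 to 15 nt, replicate 1 had 32.9% against 33.2% of all protein-coding, and replicate 2 had 34.8% against 21.6%. Roles were unlike among tails of 6 to 30 nt, with 13.2% (18 of 136) for CHD genes and 28.2% (35 of 124) for BAF. Arid1a alone held 12 of those 35, so 1 gene made a large part of the BAF share. By gene, T-ended tails were 19 of 105 short tails of Eed, 18 of 63 of Suz12 and 12 of 18 of Arid1a, the genes whose tails are printed above. Without Eed and Suz12 the share was 20.9%.

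Annotated transcript length went with tail length. The longest annotated transcript of a chromatin gene had a median of 5416 nt, against 3384 nt for protein-coding genes, and 41 of 60 (68.3%) were in the top 3 of 10 equal classes of length (at least 4426 nt). Over all protein-coding genes, the median tail fell from 89.4 nt in the shortest class to 62.0 nt in the longest. Set against the median of its own length class, the median chromatin gene differed by -3.88 nt, and 36 of 60 (60%) were below it, against 50% of all protein-coding genes. Whether length has a part in the shorter tails was not tested.

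Across the 60 chromatin genes, Spearman's rho between transcript length and gene tail was -0.41, and -0.04 over tails of at least 6 nt. Between transcript length and the share of 1 to 5 nt tails it was 0.49. These are descriptions across genes of the same libraries, which are not independent replicates. Eed and Suz12 differed from the medians of their length classes by -33.4 and -32.0 nt, and Smarcb1 by 25.1 nt. Cbx5 (87.0 nt) lay likewise above the median of 62.0 nt in the longest class. Cbx1, the longest of the 20 members with at least 30 reads in each replicate, differed from its class by 11.4 nt.

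**Figure D5:**
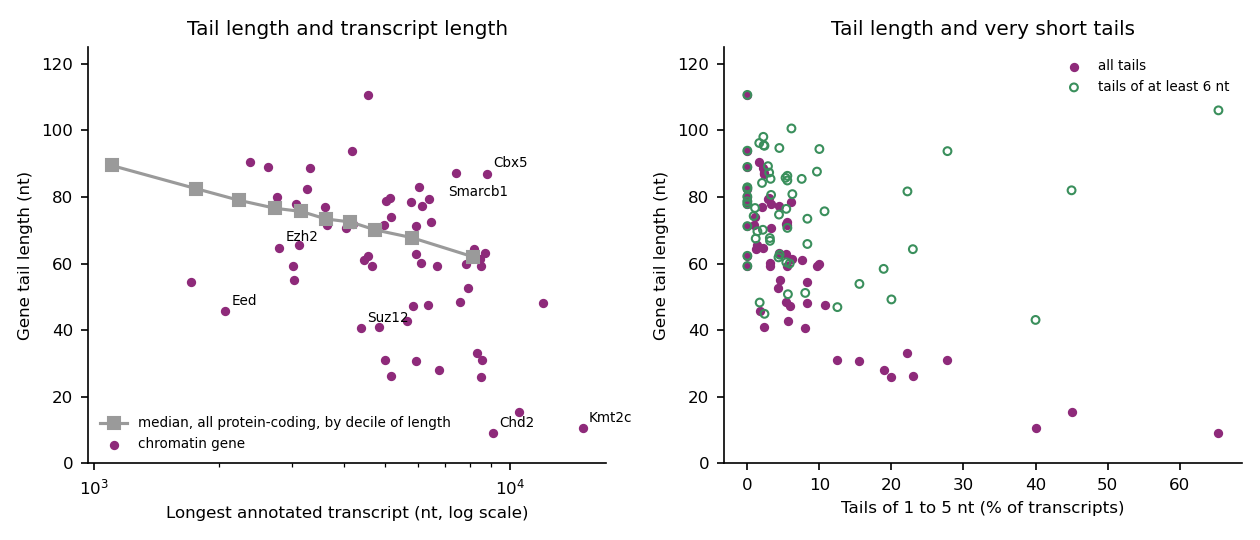
Left, gene tail length (nt) against the longest annotated transcript (nt, log scale) for 60 chromatin genes, with the median of all protein-coding genes in 10 classes of length as grey squares, which fall from 89.4 to 62.0 nt. Right, gene tail length against the share of tails of 1 to 5 nt (%), with all tails as filled points and with tails of at least 6 nt as open points. The genes with the most very short tails have the lowest filled points.

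Replicates ordered the chromatin genes alike in part. Over the 42 genes with at least 10 reads in each replicate, Spearman's rho between replicates was 0.54, against 0.50 over all protein-coding genes of that depth. The median difference between replicates was 14.7 nt for the chromatin genes and 10.7 nt for all. Replicate 2, the deeper one, was the shorter for 24 of 42 (57.1%), against 52.3%. Single genes with fewer than 30 reads in a replicate are therefore given as values of these libraries only.

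The limit of 10 reads left genes close by on either side. Just outside it, with 7 to 9 reads, were Cbx2, Hdac1, Setdb2, Cbx3, Setd1a, Arid1b, Kdm5a, Kmt2a, Ezh1 and Chd7. Just inside it, with 10 to 12 reads, were Kmt2c (10.7 nt), Smarcc2 (110.6 nt), Cbx6 (59.9 nt) and Smarcd2 (80.1 nt). The lowest of these 4 had 1 read in replicate 1, and the highest had 2. Outside the limit, Ezh1 had 46.4 nt over its 9 reads, Cbx3 had 74.6 nt over 8, and Kdm5a had 112.7 nt, so genes on both sides of the limit spread widely.

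Some reads may belong to other genes. Processed pseudogenes at least 95% identical to Smarca5 on chromosome 4 had at most 15 reads each, against 254 for Smarca5. Those with reads had tails of 7.77 to 19.0 nt, with 50% to 66.7% of their reads at 1 to 5 nt. Whether these reads belong to Smarca5 was not tested. A copy of part of Chd2 had 2 reads, and annotated copies of Setd3, Kdm2b, Smarcc1 and Setd1a had 0. No gene with at least 10 reads overlapped a member's exons on the same strand. Exons of 20 of the 60 genes overlapped a gene on the opposite strand, and in 6 cases that gene had at least 10 reads: Setdb1 with Cers2, Kdm2b with Rnf34, Smarcc1 with Dhx30, Kdm1b with Dek, Arid4b with Ggps1 and Cbx7 with Apobec3. The strand setting of the gene counting is not given in the sources used here, so values of these genes are less certain. Without the genes that had such a copy or overlap, 51 members were left, of which 70.6% were below 75 nt.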

How the data were processed

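PAIso-seq reads of wild-type 24h-EpiLCs were analysed from the table that the authors deposited. Per the study's methods, circular consensus reads were split by barcode and mapped to mm10 with minimap2 2.17, soft-clipped 3′ bases were taken as tails, and genes were assigned with featureCounts 2.0.1. For each read, the deposited values are counts, without normalization, of the passes and of each of the 4 tail bases. Reads without a tail are not in the table.

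Tail length was the sum of those base counts. Reads with at least 7 passes were kept, and the 15.2% of them in rows that name no gene were left out. Genes with at least 10 reads were given a geometric mean. Of 12962 gene identifiers, 12955 were found in GENCODE vM21 (GRCm38). The comparator was every nuclear protein-coding gene, members included. Replicate depth is given in the report. With 1 group, no test was made. The 75 nt boundary follows the study's use. Members and lists were chosen with earlier results of these data known.

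Named genes were the 5 longest and 5 shortest members with at least 30 reads in each replicate, the best covered member of each role, all PRC2 and HP1 genes with values, comparable paralogs, the extremes in very short, long and T-ended tails and in replicate ratio, and members with 7 to 12 reads. Some items that these rules took are not reported here. Others are said to be named after their values were seen. Copies were searched with blastn 2.17.0 (at least 95% identity over 500 nt). Alternatives changed the pass filter, tail minimum, base count, summary, read minimum, comparator and replicates. Scripts (Python 3.11.15, pandas 2.3.3, numpy 2.4.6, scipy 1.17.1, matplotlib 3.10.9) were tested on simulated data.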

Additional observations from a re-analysis of the deposited data

How the results depend on the processing

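The difference of -12.9 nt between the median chromatin gene and the median protein-coding gene stayed below 0 under every alternative run, with the read minimum applied to the tails kept. It was -3.85 nt with tails of at least 6 nt, -0.487 nt with tails of at least 15 nt, -2.55 nt with arithmetic means, -7.0 nt with medians per gene and -3.88 nt against genes of the same class of transcript length. With the length class and tails of at least 6 nt together, chosen after seeing the data, it was -0.750 nt. Apart from that with medians per gene, these alternatives gave differences smaller than the replicate standard deviation of 4.36 nt. Over tails of at least 15 nt without the read minimum applied again, the order was reversed. The chromatin median was then 83.0 nt and the protein-coding median 82.6 nt. The other alternatives with both replicates gave -14.2 to -11.8 nt. Leaving out a replicate gave -11.4 to -5.22 nt, the latter from replicate 1 alone. The share of members below 75 nt, 70%, became 45.6%, 31.6%, 21.7% and 33.3% with tails of at least 6 nt, of at least 15 nt, arithmetic means and medians, where the shares of all protein-coding genes were 35.5%, 28.6%, 12.5% and 24.8%, and 59.5% to 72.2% in single replicates. Members below the protein-coding median in both replicates numbered 32 of 55 in place of 21 of 42 with at least 5 reads per gene. They were 14 of 26 with at least 20 reads, 14 of 41 with tails of at least 15 nt, and 18 to 23 of 37 to 42 otherwise. Of all protein-coding genes, 32.8% were below it in both replicates as reported. That share is not given for the alternatives, so these counts alone do not show whether the excess stayed. The share of 1 to 5 nt tails, 4.80%, was 1.89% without replicate 2 and 6.21% without replicate 1, a gap that was not tested. No paired analysis was possible because the sample forms 1 group. Other pass filters and counting only A bases moved these results by less than the replicate spread. Of 29 genes taken by the naming rule, the tail moved by more than that spread in 14 with tails of at least 6 nt and in 23 with medians per gene. Depth left 34 members with 1 to 9 reads and no gene value.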
